A study of Schizosaccharomyces pombe with 18 samples.

Results

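The comparison set cells that carried a plasmid with *rpl32-1* against cells that carried a plasmid with *rpl32-2*, both harvested in log phase, at an OD600 of 0.5. Its members were chosen by their sample titles and came to 6 of the 18 arrays of the series, 3 for each strain. Both strains were *S. pombe* SP-Q01, *h-* and *leu1-32* by the strain list of the study, grown in EMM2 medium, and both kept their own chromosomal copies of each paralog. WT cells, 3 arrays in log phase, were the same strain with the empty plasmid. Early stationary phase cells, at an OD600 of 10, were measured with 3 arrays for each of these strains as well. The sample labels name the plasmid pESP3, while the methods of the study name pREP3X, whose *nmt1* promoter is off in the presence of thiamine, for overexpression. Total RNA was hybridised to arrays designed for *S. pombe* and *S. cerevisiae* together, and 2937 of the 10928 probe sets have an *S. pombe* gene name and were compared. All 6 arrays are labelled as biological replicates, which the methods of the study call independent.

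Ribosomal protein L32 is a component of the large subunit of the ribosome. As for many ribosomal proteins of yeasts, the genome encodes it in a pair of paralogous genes with similar coding sequences, each transcribed from a locus of its own. Paralogs of this kind can differ in expression level between growth states, and some ribosomal proteins have been assigned functions outside the ribosome. Whether cells with more of one paralog express other genes than cells with more of the other is the question the comparison addresses.

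The inserts ran from start codon to stop codon of each gene, as the cloning primers show. The primers are printed because they mark which transcript each plasmid adds and how alike the paralogs are. Capitals mark the bases of the gene, lower case the added tail with the restriction site, and reverse primers read the opposite strand.
RPL32-1fo: ccgctcgagATGGCTGCAATCAACATTGTC
RPL32-2fo: ccgctcgagATGGCTGCTGTCAATATCATC
RPL32-1re: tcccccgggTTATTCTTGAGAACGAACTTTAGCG
RPL32-2re: tcccccgggTTACTCCTGAGAGCGAACC
The forward primers differ in 5 of 21 bases of the gene and the reverse primers in 4 of the 19 that both cover. *rpl32-1* is listed as *rpl3201* (SPBC16C6.11) and *rpl32-2* as *rpl3202* (SPAC3H5.10). The inserts add no sequence beyond the coding region, so that a probe set outside it would not read the plasmid transcript. The sources used here do not say where the probes lie.

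The probe sets of the paralogs did not follow the labels of both strains. The *rpl32-1* probe set had 14.18, 14.11 and 14.37 (log2, quantile-normalized) on arrays 1, 2 and 3 labelled *rpl32-1*, against 13.60, 13.02 and 13.08 on those labelled *rpl32-2* and 13.54, 13.58 and 14.37 in WT cells. The strains did not overlap, with a difference of 0.99 (SE 0.51, unadjusted p 0.0705, adjusted p 0.999 in limma). It was 0.38 with a term in the fit for sets of arrays alike in their distribution. The arrays labelled *rpl32-1* and WT array 3 read near the top of the scale, so that 0.99 is no measure of how much transcript the plasmid adds. The *rpl32-2* probe set had 13.74, 13.73 and 13.77 on the arrays labelled *rpl32-1*, against 13.79, 10.88 and 8.40 on those labelled *rpl32-2* and 13.73, 13.78 and 13.78 in WT cells. It was thus at the WT level on array 1 labelled *rpl32-2* and far below it on arrays 2 and 3 of the strain that should overexpress it. The difference between strains was 2.72, the largest of all probe sets, with an SE of 1.47 and an adjusted p of 0.999. The probe set had 13.55, 13.63 and 8.96 on the early stationary phase arrays labelled *rpl32-1*, against 13.46, 8.80 and 7.72 on those labelled *rpl32-2*. Array 3 labelled *rpl32-1* was thus low in that phase as well. Strains are therefore named below as the arrays are labelled. All directions rest on those labels.

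**Figure D1:**
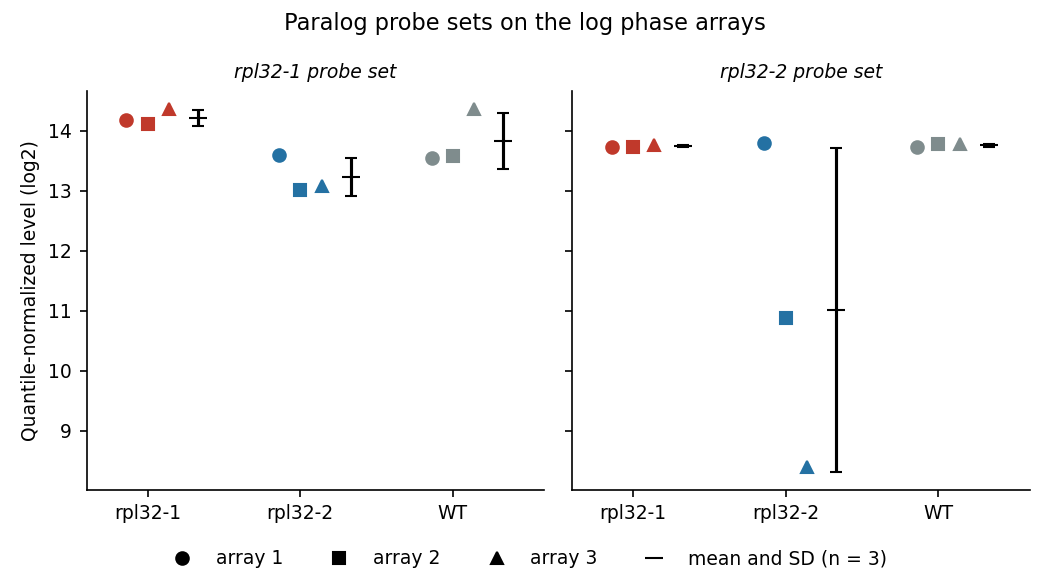
Quantile-normalized level (log2) of the *rpl32-1* probe set (left) and the *rpl32-2* probe set (right) on each log phase array labelled *rpl32-1*, *rpl32-2* and WT, with the mean and SD of 3 arrays. The *rpl32-2* probe set stands at 10.88 and 8.40 on arrays 2 and 3 labelled *rpl32-2*, and between 13.73 and 13.79 on the other 7 arrays.

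A plasmid marker and the gene *nmt1* read high in both strains. The probe set for *LEU2* of *S. cerevisiae*, the marker gene of many fission yeast plasmids, was the highest of the 2601 of its species on every log phase array. It had 12.51, 11.99 and 11.43 (log2, as deposited) on the arrays labelled *rpl32-1*, against 12.02, 11.60 and 12.42 on those labelled *rpl32-2*, and the strains overlapped. WT cells in log phase, with the empty plasmid, had 12.89, 12.69 and 12.60, so that this marker does not tell whether a plasmid held an insert. *URA3* of *S. cerevisiae*, a marker no source names for these plasmids, ranked 956, 1199 and 1645 on the arrays labelled *rpl32-1*, against 757, 1041 and 740 on those labelled *rpl32-2*. *nmt1*, the thiamine-repressed gene whose promoter pREP plasmids use, had 14.20, 14.20 and 14.09 on the arrays labelled *rpl32-1*, against 14.14, 14.29 and 14.18 on those labelled *rpl32-2*. The probe set therefore read near the top of the scale in both strains, with a difference of −0.04 (SE 0.09). As it is a probe set for the gene *nmt1*, it does not measure the promoter on a plasmid. The level of *leu1* differed by 0.05.

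The 6 arrays were unequal in quality. Array 3 labelled *rpl32-1* was dim, with 18.7% of the 2937 probe sets not above background (the percentile 95 of the *S. cerevisiae* probe sets of that array), against 1.7% to 4.70% on the 3 arrays labelled *rpl32-2* and 2.62% to 3.61% on the other 2 labelled *rpl32-1*. By the distribution of the deposited values the 18 arrays fell into 5 sets, and no set held both strains in log phase: the arrays labelled *rpl32-1* lay in sets 1, 4 and 3, and those labelled *rpl32-2* in sets 5, 5 and 2. The sets are a pattern of the values and no labelled batch, and between these arrays set and strain cannot be told apart directly. The median SD within a group was 0.21 (log2) for *rpl32-1*, 0.19 for *rpl32-2* and 0.11 for WT. Arrays 1 and 3 labelled *rpl32-1* were at least 2-fold apart for 355 probe sets, while pairs of arrays of different strains were so for 43 to 324.

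No probe set passed the test between the strains. Of 2937 probe sets limma called 0 (0%) for an adjusted p below 0.05 with at least a 2-fold difference, with 0.436 as the smallest adjusted p. An unadjusted p under 0.05 at 2-fold or more was reached by 15 (0.511%), of which 9 were higher in *rpl32-1* (0.306%) and 6 were lower (0.204%), and at an unadjusted p under 0.05 alone 54 (1.84%) and 62 (2.11%). Differences of single probe sets ran from −1.28 to 2.72 with a median of −0.01. The methods' t-test without adjustment passed 6 higher and 3 lower probe sets at 2-fold, and 0 after Benjamini-Hochberg adjustment. With arrays weighted by their quality limma called 13 higher and 3 lower, though the weights had not converged. The 9 higher and 6 lower depended on the scaling. As deposited, where the median of all probe sets was 0.16, they were 12 and 0, and after quantile normalization over all probe sets of the array, where it was −0.07, 0 and 23. limma called 0 under both. Their sum of 15 was 38 without array 1 labelled *rpl32-1*, 33 without array 2 and 23 without array 3, and 10 to 20 without single arrays labelled *rpl32-2*. The arrays of the strains did not overlap for 158 probe sets higher on those labelled *rpl32-1* (5.38%) and 170 lower (5.79%). Of these, 10 (0.34%) and 7 (0.238%) were also at least 2-fold apart. The leading members below are therefore a description of the values, and none is a call. They are the 15 probe sets with the largest difference in each direction among those without overlap and above background on at least 3 of the 6 arrays. RNA of a whole culture cannot tell apart fewer cells that express a gene and less RNA per cell.

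*pof4* had the smallest p. The gene encodes an F-box protein of the elongin A kind. Its levels were 8.78, 8.75 and 9.07 (log2) on the arrays labelled *rpl32-1*, against 8.12, 7.87 and 7.99 on those labelled *rpl32-2* and 8.53, 8.14 and 8.05 in WT cells. The lowest *rpl32-1* array stood above the highest of the other strain and of WT. The difference was 0.88 (SE 0.18, unadjusted p 2.37e-04, adjusted p 0.436 in limma), and in early stationary phase it was −0.13 (SE 0.18). The difference between phases of the strain difference was 1.01 (SE 0.26, unadjusted p 0.00142, adjusted p 0.344).

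Several genes of meiosis and sporulation were among the higher members, at low levels. *mug10*, named for its induction in meiosis, had 7.17, 7.20 and 7.56 on the arrays labelled *rpl32-1*, against 5.96, 6.18 and 6.66 on those labelled *rpl32-2* and 7.18, 6.91 and 7.16 in WT cells. The WT arrays lay near those labelled *rpl32-1*, and the difference was 1.04 (SE 0.24, unadjusted p 5.16e-04, adjusted p 0.436). *mei4*, the forkhead transcription factor of middle meiosis, had 6.70, 6.97 and 6.13, against 5.33, 5.30 and 5.57. Its difference was 1.2 (SE 0.39), with a level above background on 3 of the 6 arrays, and 0.086 with the array set in the fit. *spo5*, which encodes a meiotic RNA-binding protein, differed by 1.0 (SE 0.30), and *mug72* by 0.91 (SE 0.39). Without array 3 labelled *rpl32-1* these were 0.64 and 0.57. *atf31*, a transcription factor gene expressed in meiosis, had 6.30, 5.79 and 5.21 on the arrays labelled *rpl32-1*, against 4.45, 4.68 and 4.95 on those labelled *rpl32-2*, above background on 2 of the 6. Of 64 probe sets of meiotic recombination and sporulation, 4 were higher at an unadjusted p under 0.05 and 2 lower, with 0 called, where 1.84% and 2.11% of all probe sets were. Their median difference was 0.09, against −0.01 over all probe sets. For 91 *mug* genes these counts were 5 and 2, and the median was −0.01. Of the *mug* genes, *mug165* was among the leading lower members, at −0.73 (SE 0.21, unadjusted p 0.00365 in limma). *mug133*, named for its value, differed by −1.21 (SE 0.53), with overlap between the strains.

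RNA processing genes were found among the higher and the lower probe sets. *lsm8*, which encodes a subunit of the Lsm ring on U6 snRNA, had 6.23, 6.54 and 7.75 on the arrays labelled *rpl32-1*, against 5.42, 4.45 and 6.05 on those labelled *rpl32-2* and 6.15, 6.15 and 6.18 in WT cells. Every *rpl32-1* array was above the WT arrays and every *rpl32-2* array below them, with a difference between strains of 1.54 (SE 0.44, unadjusted p 0.00339). The probe set was above background on 3 of the 6 arrays, and its 7.75 on array 3 labelled *rpl32-1* was not above it. The difference was 0.85 after quantile normalization over all probe sets and 0.20 with the array set in the fit. In early stationary phase the difference was −0.87 (SE 0.44). The splicing factor genes *cwf5* and *sap62* differed by 0.79 (SE 0.34) and 0.75 (SE 0.32). *cid11*, of the Cid1 family of nucleotidyltransferases, differed by 1.0 (SE 0.39). The gene of the U2-associated protein Uap2 ran the other way, with 7.51, 7.75 and 6.22 on the arrays labelled *rpl32-1*, against 7.87, 8.13 and 8.01. Without the dim array 3 its difference of −0.84 (SE 0.31) became −0.37. In early stationary phase its difference was 0.97, without overlap. Over 75 splicing probe sets 6 did not overlap and were higher, 6 did not overlap and were lower (8.0% each, against 5.38% and 5.79% of all probe sets), and the median was 0.00.

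Several kinetochore genes were among the lower members. *fta2*, which encodes a subunit of the Sim4 complex at the inner kinetochore, had 6.68, 6.66 and 5.50 on the arrays labelled *rpl32-1*, against 7.53, 7.18 and 7.33 on those labelled *rpl32-2* and 6.89, 7.38 and 7.21 in WT cells. All 3 *rpl32-1* arrays lay below the other 6. The difference was −1.07 (SE 0.28, unadjusted p 0.00169, adjusted p 0.803), and −0.70 without array 3. *dad3*, of the DASH complex that couples kinetochores to microtubules, had the lowest difference of all probe sets, −1.28 (SE 0.38, unadjusted p 0.00409). Its levels were 5.85, 6.22 and 5.47 on the arrays labelled *rpl32-1*, against 7.72, 6.82 and 6.82. Another DASH gene, *dad1*, differed by −0.47 (SE 0.20) and *spc24* of the Ndc80 complex by −0.92 (SE 0.35), which was −0.42 without array 3. A further DASH gene ran the other way: *dad5* had 6.0, 5.76 and 8.33 on the arrays labelled *rpl32-1*, against 5.45, 5.50 and 5.63. Its difference of 1.17 became 0.36 without array 3. It was above background on 3 of the 6 arrays, and its 8.33 on array 3 was not above it. Of 37 kinetochore probe sets 4 were lower at an unadjusted p under 0.05 and none higher, with 0 called. For 5 (13.5%) the arrays did not overlap and were lower, for 3 (8.11%) higher, against 5.79% and 5.38% of all probe sets. The median of the list was −0.12 and, on the values as deposited, −0.03, where that of all probe sets was 0.16.

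The other lower members had roles of many kinds. *dli1*, which encodes a light intermediate chain of dynein, had 5.25, 5.31 and 4.95 on the arrays labelled *rpl32-1*, against 6.41, 6.04 and 6.48 on those labelled *rpl32-2*. *cid12*, of the RNA-directed RNA polymerase complex of heterochromatin, had 5.52, 5.35 and 5.09, against 6.32, 6.51 and 6.49. Both genes were not above background on any array labelled *rpl32-1* and were above it on all 3 labelled *rpl32-2*, through which alone they met the rule. No fold is given for them, since the background of the arrays labelled *rpl32-1* averaged above their mean level on those labelled *rpl32-2*. *orc6*, of the origin recognition complex, had 8.47, 8.45 and 6.45, against 9.12, 8.81 and 8.77. Most of its difference of −1.11 (SE 0.37) came from array 3, without which it was −0.42. *mvp1*, which encodes a sorting nexin, differed by −0.75 (SE 0.17, unadjusted p 5.93e-04) and by −0.62 without array 3. In early stationary phase its difference was 0.50, without overlap. *cwg2*, of a protein prenyltransferase, differed by −0.90 (SE 0.22) and *ubc12*, the NEDD8-conjugating enzyme gene, by −0.79 (SE 0.21). *yox1*, the repressor of MBF-dependent transcription, had 7.05, 7.10 and 7.98 on the arrays labelled *rpl32-1*, against 8.18, 8.34 and 8.02. The strains did not overlap, though array 3 labelled *rpl32-1* came close to array 3 labelled *rpl32-2*, and the difference was −0.80 (SE 0.47).

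The 30 leading members, 15 in each direction, were largely weak probe sets, and array 3 labelled *rpl32-1* weighed on many. Only 5 of the 15 higher and 0 of the 15 lower lay above background on all 6 arrays. On array 3, where the lowest level above background was 8.53 after normalization, 10 of the higher and 15 of the lower were not above it. Array 3 stood more than 0.5 beyond both other *rpl32-1* arrays, in the direction of the difference, for 6 of the 15 higher and 7 of the 15 lower. Without it the median difference was 0.75 in place of 1.0 for the higher and −0.70 in place of −0.90 for the lower. Against WT cells, the *rpl32-1* arrays lay beyond all 3 WT arrays for 9 of the higher and 12 of the lower, and the *rpl32-2* arrays beyond them on the other side for 4 and 2. With the array set in the fit the median was 0.20 for the higher and −0.38 for the lower, and 11 of the higher and 9 of the lower were smaller by over 1.5 times or reversed. The members were chosen on these 6 arrays, so their directions are no separate evidence.

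**Figure D2:**
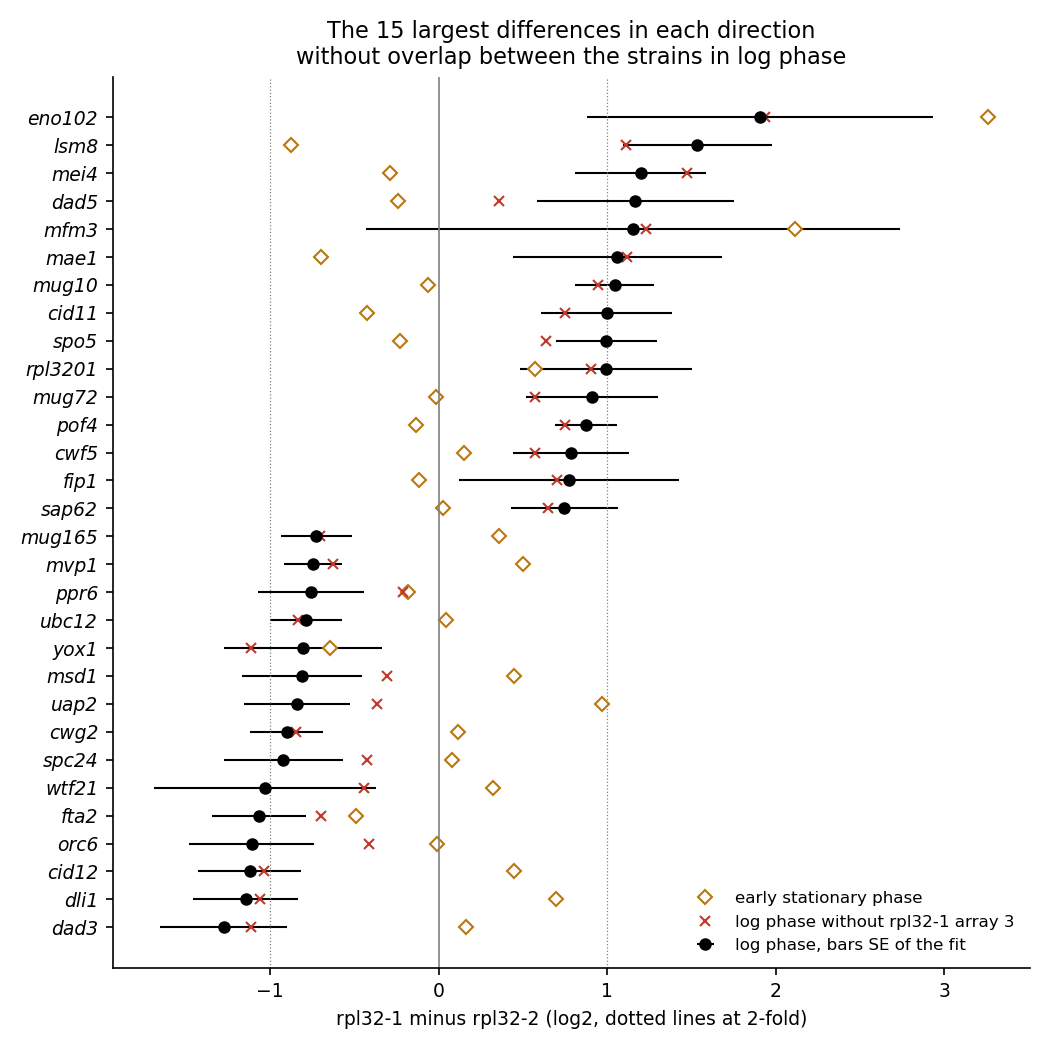
Difference *rpl32-1* minus *rpl32-2* (log2) of the 30 probe sets with the largest differences without overlap in log phase (filled circles, bars SE of the limma fit), the same without array 3 labelled *rpl32-1* (crosses) and in early stationary phase (open diamonds). The diamonds lie on the side of the filled circles for 5 of the 15 higher and 4 of the 15 lower members. For *dli1* and *cid12*, not above background on the arrays labelled *rpl32-1*, the plotted difference is no measured fold.

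Early stationary phase gave a second set of arrays for the same pair of strains. limma called 0 probe sets there (0%), with a smallest adjusted p of 0.137, and at an unadjusted p under 0.05 and 2-fold 39 were higher (1.33%) and 27 lower (0.919%). Without array 3 labelled *rpl32-2* in that phase it called 166. Of the 15 leading higher members 5 had a difference above 0 in that phase, and of the 15 leading lower members 4 had one below 0. The medians of the 2 groups were −0.12 and 0.17. Among all probe sets above 0 in log phase 44.1% were above 0 in early stationary phase, and among those below 0 49.3% were below 0. In early stationary phase 6.54% of all probe sets did not overlap and were higher, and 7.59% lower. No overlap in both phases was seen for 9 probe sets higher in both, 13 lower in both, and 21 that turned round (11 higher then lower, 10 lower then higher). The test of the difference between phases called 0 (0%), with a smallest adjusted p of 0.170, and 104 passed an unadjusted p under 0.05 at 2-fold (3.54%). Without the same array it called 153.

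*chs2* and *fta2* were among the 22 probe sets without overlap and of one direction in both phases, beside 21 that turned round. They had the largest log phase differences of those above background in log phase on 5 or 6 arrays. Of the probe sets without overlap and higher in log phase, 5.7% were so in early stationary phase too, where 6.54% of all were. For those lower in log phase the share was 7.65%, where 7.59% of all were. Agreement between phases therefore does not mark these genes. *chs2* encodes a chitin synthase-like protein found at the septum. It had 8.04, 8.59 and 8.03 on the log phase arrays labelled *rpl32-1*, against 9.09, 8.92 and 8.83 on those labelled *rpl32-2*, and in early stationary phase 8.30, 7.82 and 8.14, against 9.47, 8.83 and 8.36. In WT log phase cells it had 8.88, 9.12 and 8.88, near the arrays labelled *rpl32-2*. The differences were −0.72 (SE 0.23, unadjusted p 0.00702, adjusted p 0.929) and −0.80 (SE 0.23, unadjusted p 0.00331, adjusted p 0.137). In early stationary phase *fta2* had 6.07, 6.14 and 6.13 on the arrays labelled *rpl32-1*, against 6.60, 6.86 and 6.35 (difference −0.49, SE 0.28, adjusted p 0.390). Higher in both phases were *cwf4*, a splicing factor gene, by 0.34 and 0.60, and *gad8*, a kinase gene of the TORC2 pathway, by 0.28 and 0.42 in log and early stationary phase. Also larger than *gad8* in both were *brf1* (0.40 and 0.77), *mor2* (0.38 and 0.44), *pmd1* (0.33 and 0.52) and *aur1* (0.30 and 0.76). So was *mug114* (0.59 and 0.58), though above background on 0 of the 6 log phase arrays. Apart from those the rule named, genes of this paragraph are given because of these values.

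**Figure D3:**
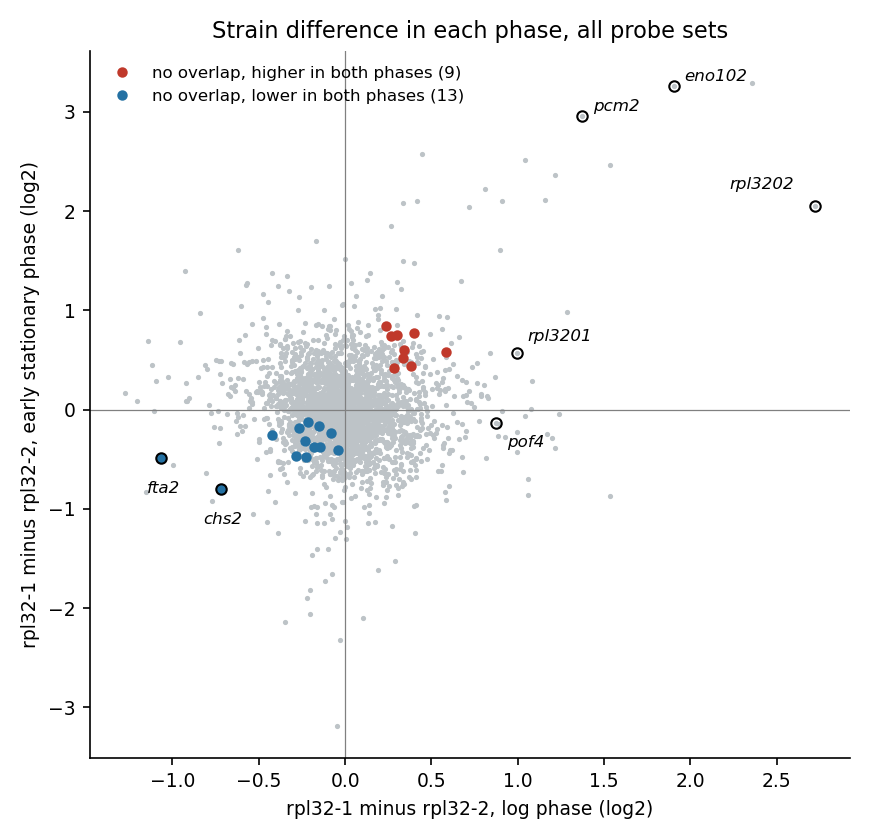
Difference *rpl32-1* minus *rpl32-2* (log2) in log phase (x axis) and early stationary phase (y axis) for 2937 probe sets, with those that did not overlap in both phases in one direction in colour, 9 higher and 13 lower. *chs2* and *fta2* lie farthest to the lower left among the coloured points. To the upper right lie *eno102*, *pcm2* and *rpl3202*, which are not in colour.

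Size alone picked other genes, which were uneven among the arrays of one strain. Of the 19 probe sets at least 2-fold higher on the log phase arrays labelled *rpl32-1*, 8 were at least 2-fold higher in early stationary phase too, against 1.67% of all probe sets. They were *rpl3202*, *mug108*, *eno102*, *zym1*, *pcm2*, *mel1*, *mfm3* and *str3*. Among the 8 only *pcm2* was without overlap between the strains in early stationary phase. Of the 9 at least 2-fold lower, 0 were 2-fold lower in that phase. *eno102*, an enolase gene, had 7.22, 10.51 and 8.68 on the log phase arrays labelled *rpl32-1*, against 7.09, 6.88 and 6.73 on those labelled *rpl32-2* and 7.33, 6.55 and 6.95 in WT cells. Array 1 was thus at the level of the other strain and array 2 far above it, and the difference of 1.91 had an SE of 1.03 (unadjusted p 0.0834). In early stationary phase it was 3.26 (SE 1.03, unadjusted p 0.00634), with 13.65, 13.80 and 13.76 on the arrays labelled *rpl32-1*, against 8.01, 9.69 and 13.72.

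*zym1*, the metallothionein gene, had 8.39, 12.32 and 10.74 on the log phase arrays labelled *rpl32-1*, against 9.56, 8.76 and 8.52 on those labelled *rpl32-2*, a difference of 1.54 (SE 0.91). Its array 1 was the lowest of the 6 and arrays 2 and 3 the highest. *gld1*, of glycerol dehydrogenase, had 7.42, 10.19 and 8.54, against 7.50, 7.22 and 7.57 (1.29, SE 0.50, unadjusted p 0.0220). *pcm2*, a protein methyltransferase gene, had 6.67, 8.21 and 9.11, against 7.18, 6.69 and 6.0 (1.37, SE 0.76). In early stationary phase *pcm2* had 9.43, 11.14 and 10.64 on the arrays labelled *rpl32-1*, against 6.11, 6.84 and 9.39, without overlap (2.96, SE 0.76, unadjusted p 0.00144). Of the 19 probe sets 7 were among the 286 that limma called higher in WT early stationary phase than in WT log phase (9.74% of all probe sets). *mfm3*, a gene of the M-factor mating pheromone that *h-* cells make, has 2 probe sets. One had 8.10, 7.54 and 7.67 on the log phase arrays labelled *rpl32-1*, against 6.97, 6.75 and 6.13. The other had 7.93, 7.23 and 4.08, against 5.57, 5.96 and 5.55, so that the probe sets of this family of near-identical genes disagreed on array 3. *mae1*, of the malate permease, had a probe set without overlap at a difference of 1.06 (SE 0.62), which was −0.50 with the array set in the fit, and 2 others that overlapped.

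Array 2 labelled *rpl32-1* stood apart from array 1 in genes of several kinds, stress and carbon source genes among them. At least 2-fold higher on array 2 were 27 probe sets and lower 6. The 27 held 6 of 91 *mug* probe sets, of which 1 was lower. They also held 3 of 24 of hexose transport and alternative carbon use, of which 0 were lower. *mug108*, named for this value, had the largest gap, 5.68. Of the 27, 20 were among the 9.74% called higher in WT early stationary phase, 21 were also at least 2-fold higher on array 3 than on array 1, and 7 reached 2-fold in the comparison of strains. *hsp16*, a small heat shock protein gene, had 9.08, 12.68 and 11.02 on arrays 1, 2 and 3 labelled *rpl32-1*, against 10.83, 10.08 and 10.52 on those labelled *rpl32-2*. *fbp1*, the fructose bisphosphatase gene repressed by glucose, had 7.31, 9.54 and 9.12, against 7.97, 7.79 and 7.48. For *lsd90* the levels were 8.24, 12.02 and 10.51, against 9.40, 8.62 and 10.23. The arrays of the strains overlapped for all 3 genes, which are named because of these values. Among 42 core stress probe sets, 5 were at least 2-fold higher on array 2 than on array 1, and 11 on array 3. Over all 2937 probe sets these counts were 27 and 190. Between the strains 1 of the 42, *cip1*, was higher and 1, the transcription factor gene *atf1*, lower at an unadjusted p under 0.05, and the median was 0.02. For 6 of the 42 (14.3%) the arrays did not overlap and were higher, and for 1 (2.38%) lower, against 5.38% and 5.79% of all probe sets. Each array was placed on a line between the WT means, with 0 at log phase and 1 at early stationary phase. WT early stationary phase array 3, part of the second mean, was dim, with 21.7% of probe sets not above background. It lay in set 3, as did array 3 labelled *rpl32-1*, so that phase and array set cannot be fully told apart on this line. Arrays 1, 2 and 3 labelled *rpl32-1* lay at −0.0735, 0.0589 and 0.144, against 0.0490, −0.0311 and 0.00173 for those labelled *rpl32-2*. The means differed by 0.0367 (two-sided exact permutation p 0.6, where 3 against 3 allow no p below 0.1).

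**Figure D4:**
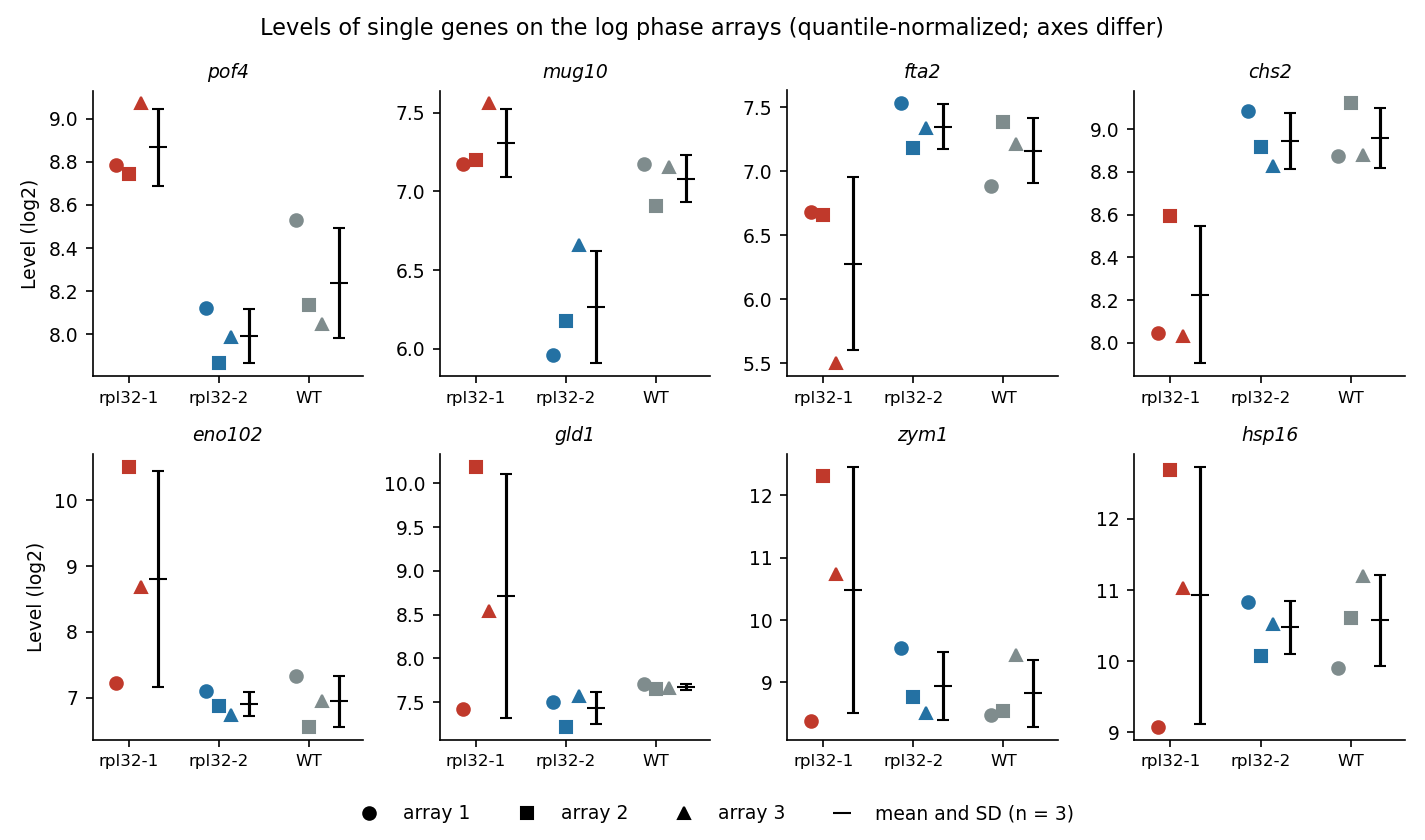
Quantile-normalized level (log2) of 8 genes on each log phase array labelled *rpl32-1*, *rpl32-2* and WT, with the mean and SD of 3 arrays; the vertical axes differ. The strains do not overlap for *pof4*, *mug10*, *fta2*, *chs2* and *eno102*, and for *eno102*, *gld1*, *zym1* and *hsp16* array 2 labelled *rpl32-1* is the highest of the 9 arrays.

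The arrays labelled *rpl32-2* differed among themselves too. Apart from *rpl32-2* itself, the M-factor gene *mfm1* was spread most, with 8.18, 6.68 and 5.73 on arrays 1, 2 and 3 for one of its probe sets, against 7.62, 6.44 and 7.50 on those labelled *rpl32-1*. *gut2*, of glycerol-3-phosphate dehydrogenase, had 9.37, 8.76 and 10.81 on the arrays labelled *rpl32-2*, and *ctt1*, the catalase gene, 10.25, 9.45 and 11.08. In WT cells these genes also varied, *gut2* with 9.59, 10.48 and 10.49. Arrays 1 and 3 labelled *rpl32-2* were at least 2-fold apart for 170 probe sets, and arrays 2 and 3 for 27.

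Ribosomal protein genes were even between the strains apart from the paralogs. For 79 probe sets of the large subunit the median difference was −0.02, and for 49 of the small subunit −0.02, with 0 called and none at an unadjusted p under 0.05 in either list. Of the large subunit 10 (12.7%) did not overlap and were lower on the arrays labelled *rpl32-1*, against 5.79% of all probe sets, with differences no lower than −0.40 in the whole list. The gene *rps1401* of the small subunit had 12.75, 12.77 and 12.97 on the arrays labelled *rpl32-1*, against 12.79, 12.45 and 11.77 (0.49, SE 0.25). Ribosome biogenesis genes, 39 probe sets, had a median of 0.08, which was 0.25 without array 3 labelled *rpl32-1*, and none passed an unadjusted p under 0.05.

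Genes of division showed small differences. The septation initiation network, which triggers cytokinesis, had a median of −0.05 over 15 probe sets, and its kinase gene *sid1* differed by −0.45 (SE 0.15, unadjusted p 0.00939), with 7.29, 7.33 and 6.89 on the arrays labelled *rpl32-1*, against 7.60, 7.73 and 7.55. For cell separation genes the median was −0.01 over 12, and none passed an unadjusted p under 0.05. For septum and cell wall synthesis it was 0.02 over 28 (0.15 without array 3 labelled *rpl32-1*), with *chs2* the only one to pass. Of 54 probe sets of mitosis and cytokinesis 4 were higher at an unadjusted p under 0.05 and none lower, against 1.84% and 2.11% of all probe sets. They were *cdc12*, the formin of the contractile ring, with 9.34, 9.35 and 9.74 against 8.73, 9.10 and 9.19 (0.47, SE 0.14), the kinesin genes *klp6* (0.62) and *cut7* (0.44), and *cnd2* of condensin (0.40). For 8 of the 54 (14.8%) the arrays did not overlap and were higher, and for 1 (1.85%) lower, against 5.38% and 5.79% of all probe sets. The median was 0.04 and, without array 3 labelled *rpl32-1*, 0.15. The MBF factor and its G1/S genes had a median of −0.08 over 36, with *dfp1* of the Hsk1 kinase complex the only one to pass, at 0.43. Histone genes had a median of 0.01 over 13.

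Lists of metabolism, the cell surface, mating and other functions had medians from −0.10 to 0.36, against −0.01 over all probe sets. For nitrogen and amino acid uptake 7 of 25 (28.0%) did not overlap and were higher and none lower, against 5.38% and 5.79% of all probe sets, with a median of 0.14 and none at an unadjusted p under 0.05. Its members *gaf1*, a GATA factor gene, and *isp7* differed by 0.27 (SE 0.19) and 0.65 (SE 0.44). Genes of respiration and the citric acid cycle had a median of −0.06 over 49, with the ATP synthase gene *atp4* at −0.25 (SE 0.09, unadjusted p 0.0178) and *qcr8* of complex III at −0.34 (SE 0.15). Autophagy genes and vacuolar proteases had a median of 0.07 over 22 (0.02 without array 3 labelled *rpl32-1*), and *atg13* (0.58) and *atg4* (0.66) passed an unadjusted p under 0.05. Hexose transport and alternative carbon use, 24 probe sets, had a median of 0.07 and, without array 3 labelled *rpl32-1*, −0.16. Iron and copper genes had a median of 0.14 over 26, glycolysis genes 0.09 over 14, proteasome genes −0.08 over 28, and genes of heterochromatin and RNA interference −0.10 over 30, which turned to 0.05 without array 3 labelled *rpl32-1*. Flocculation and cell surface genes had the highest median of the lists other than the paralogs, 0.36 over 9, but 0.16 without that array, below ribosome biogenesis, with *mbx1* at 0.36 (SE 0.14) and *ldb1* at 0.47 (SE 0.19). Mating and meiotic entry genes had a median of 0.10 over 37. Among them *pat1*, the kinase that holds back meiosis, differed by 0.58 (SE 0.21) and *map4*, an adhesin gene, by 0.58 (SE 0.22). Thiamine genes, amino acid biosynthesis, sterol synthesis and heat shock proteins had medians between −0.01 and 0.02, and none of their members passed an unadjusted p under 0.05. For genes called in WT cells between the phases the median was −0.01 both for the 286 higher and for the 267 lower in early stationary phase (9.09% of all probe sets), and without array 3 labelled *rpl32-1* −0.03 and 0.06.

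**Figure D5:**
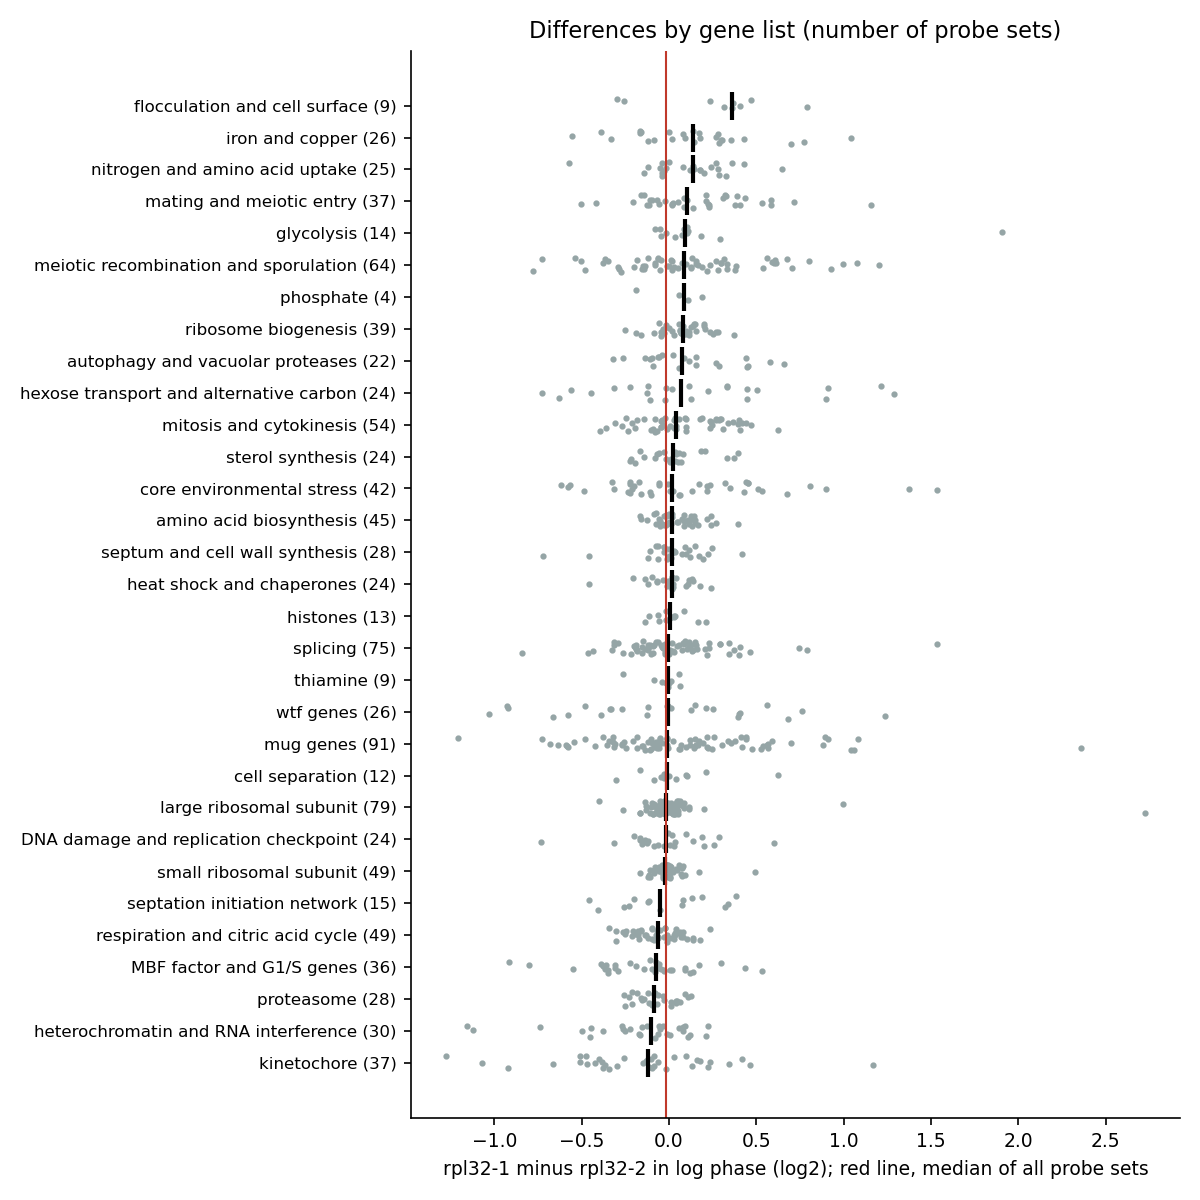
Difference *rpl32-1* minus *rpl32-2* in log phase (log2) for each probe set of 31 gene lists (grey points, number of probe sets in brackets), with the median of each list (black bar) and that of all probe sets (red line). The medians run from −0.12 for the kinetochore to 0.36 for flocculation and cell surface.

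Set beside the empty plasmid, neither strain had a call. Both comparisons use the same WT arrays. On the log phase arrays labelled *rpl32-1* limma called 0 (0%), and 13 higher (0.443%) and 6 lower (0.204%) passed an unadjusted p under 0.05 at 2-fold. On those labelled *rpl32-2* it called 0 (0%), and 1 higher (0.034%) and 4 lower (0.136%) passed. Relative to WT, *mug10* stood at 0.23 (SE 0.24) on the arrays labelled *rpl32-1* and at −0.82 (SE 0.24) on those labelled *rpl32-2*. *fta2* stood at −0.88 (SE 0.28) on the arrays labelled *rpl32-1* and at 0.19 (SE 0.28) on those labelled *rpl32-2*. *pof4* stood at 0.63 (SE 0.18) on the arrays labelled *rpl32-1* and at −0.25 (SE 0.18) on those labelled *rpl32-2*.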

How the data were processed

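Array values of *S. pombe* cells labelled *rpl32-1*, *rpl32-2* and WT were compared. The deposited log2 values were made by the authors with RMA in Partek. The versions are not given in the sources used here, nor is it said which arrays were normalized together. Gene names came from the deposited array annotation, with 113 symbols updated by ASM294v3 of RefSeq, which served for names and locus tags only. The primers came from the supplementary material of the study. Values were quantile-normalized over the 2937 *S. pombe* probe sets and fitted with limma 3.58.1 in R 4.3.3 (statmod 1.5.0), all 18 arrays with 12 residual degrees of freedom and a mean for each of 6 groups. Tests were two-sided, with Benjamini-Hochberg adjustment over all 2937 p values. A call needed an adjusted p below 0.05 and at least a 2-fold difference. The scripts were tested on simulated data. Tallies and figures used Python 3.11.15, numpy 2.4.6, pandas 2.3.3 and matplotlib 3.10.9. 0 pairs of arrays held identical values.

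Genes were named by a rule: the paralogs, *fta2*, a gene that is not reported here, called probe sets, the 30 leading members, up to 4 of each list by p, and *LEU2*, *URA3*, *nmt1* and *leu1* as plasmid checks. Others are marked as named for their values. The members, lists and rule were chosen with earlier results of these data known. Lists are described by counts and medians only. The number of arrays limits the precision. Sets of arrays were found by single linkage of ranked values at 0.2 (log2). The alternatives were the deposited values, other scalings and variance models, array weights, array sets, a replicate block, a filter on dim probe sets, the methods' t-test, treat and each array left out.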

Additional observations from a re-analysis of the deposited data

How the results depend on the processing

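The log phase comparison had 0 calls under all alternatives but 2: 16 with array weights, whose estimation did not converge (13 higher, 3 lower, smallest adjusted p 0.0130), and 9 by the methods' t-test without adjustment. Leaving out single arrays gave 0 in each case. The count of 15 at an unadjusted p under 0.05 and 2-fold was 23 after quantile normalization over all probe sets, 29 with array weights, 29 with the array set as a term, 9 by the methods' t-test and 10 to 38 without single arrays. In 2 alternatives chosen after seeing the data it was 39 (as deposited with the array set as a term) and 23 (without the 2 dimmest arrays). In early stationary phase 0 became 185 with array weights, 5 by the t-test without adjustment, and 0 to 166 without single arrays. For the difference between phases 0 became 289 with array weights and 0 to 153 without single arrays. Against WT, 0 became 36 with array weights and 8 by the t-test for *rpl32-1*, and 17 and 2 for *rpl32-2*. These WT alternatives were also added after seeing the data. With the array set as a term *mae1* turned to −0.50 and *wtf21* to 0.30. As deposited with that term *mae1* was −0.33, *wtf21* 0.42, *cid12* 0.17 and *msd1* 0.0807. The cause was not tested. The other 27 of the 31 genes recomputed (the 30 leading members and *rpl3202*) kept their direction under the alternatives run; other named genes were not recomputed one by one. The shared replicate numbers did not pair the samples, since the deviations of same-numbered arrays had r of −0.376, 0.0433 and −0.414, and with a replicate block 0 were called (smallest adjusted p 0.277). Signal limits the weak probe sets: the dim filter kept 2892 and dropped 45.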
